A study of Mus musculus with 6 samples.

Results

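Solute carrier (Slc) genes expressed in the lens-forming ectoderm were examined in mouse embryos that lacked the acetyltransferases CBP and p300 and in wild-type (WT) embryos. Members were chosen by symbol (Slc, a family number, a and a member number; Slc2a1, Slc2a3 and Slc4a1 were set aside) and were selected on a measured value, detection above background (p under 0.01) on the full set of 3 arrays from 1 genotype or both. Of 313 such genes on the array, 70 qualified, among 7141 genes that met the same threshold and 19057 genes named on the array. The samples were CBP/p300-/- (KO) surface ectoderm and WT lens placode, both dissected by laser at embryonic day 9.5 from a mixed background of FVB and 129, with 3 arrays per genotype. RNA from 3 embryos was pooled for each genotype and amplified 3 times, so the 3 arrays are, going by the labels, technical replicates of 1 pool, and the p-values below measure only the spread between amplifications. The study's own description differs: it speaks of biological replicates, for embryos a day older, and it is not settled whether those are these arrays. Below, n counts amplifications. The study compared these tissues to find genes that depend on CBP and p300 while the lens is induced. Both genes were inactivated in the presumptive lens ectoderm by Cre and not in the whole embryo. For dissected embryos a day older the methods give Pax6-Cre, and the Cre line of the embryos labelled here is not given in the sources used here. Genotype and dissected tissue changed together in the labels and cannot be told apart, nor can fewer cells of a type and less RNA per cell.

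Solute carriers are membrane proteins that move nutrients, ions, vitamins, metals and metabolites across the cell surface or across organelle membranes. Most run down a gradient or are coupled to sodium, protons or an exchanged substrate, unlike the ABC transporters, which consume ATP. The lens grows without blood vessels, and its epithelium is known for uptake of amino acids, inositol, glucose and ions through such carriers.

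Values are log2 intensities after background correction and quantile normalization, one probe per gene (the brightest that met the threshold), and a difference is KO minus WT with limma's standard error (SE). Intensities of different probes depend on the probe as well as on the transcript and are not compared as amounts of RNA. A gene was called at a Benjamini-Hochberg adjusted p under 0.05 over all tested probes with a difference of at least 1 in either direction.

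The dissected material was checked against cell type markers. Lens placode markers (12 measured of 14 on the array) had a median difference of -1.40 and a summed intensity of 11216 to 13907 on the KO arrays, against 18200 to 20105 on the WT arrays, with Sox1 not above background on any array. Surface ectoderm markers (9 measured of 14) summed to 16285 to 17736 in KO and 22596 to 23884 in WT, and Krt14, Krt15 and Krt17 were never above background. Their median difference was -0.39, with 7 negative and 2 positive. Single markers varied, with -1.39 for Tfap2c, -0.04 for Epcam and 0.49 for Cldn6. Blood markers (5 measured of 8) summed to 13738 to 14425 in KO, against 5769 to 7516 in WT, without Gata1. Of 10 endothelial markers, 7 were never above background, and the list summed to 662 to 1069 in KO and 319 to 351 in WT. Periocular mesenchyme markers (10 measured of 11, Twist1 never above background) summed to 2687 to 3196 in KO and 2596 to 4368 in WT, with a median difference of 0.49, and single markers differed in both directions. Alx4 was called higher in KO (at least 10.7-fold, fitted difference 4.05 ± 0.59, limma adjusted p = 0.0489), and the matrix genes Lum and Col3a1 had differences of 2.72 and 2.35, against -2.21 for Pdgfra and -2.86 for Snai2. Col1a1 had 8.84, 8.18 and 8.75 in KO, against 7.32, 4.70 and 4.76 in WT, with 1 WT array above background. Optic vesicle markers (4 measured of 10) summed to 2275 to 2881 in KO and 2308 to 6047 in WT. Of these 4 markers, 2 were negative and 2 positive, with a median difference of 0.205. Otx2 was at least 2.03-fold higher in KO (limma, adjusted p = 0.173). Lin28a was lower in KO without overlap, with a difference of -0.998 ± 0.258 (limma, adjusted p = 0.151). Whether Lin28a is particular to the optic vesicle in this material was not tested, so its part in the sums cannot be assigned to those cells. Rax differed by 0.513 ± 0.567 with overlapping groups. Mitf also overlapped, and it reached 12.12 on WT replicate 2 against 9.15 and 9.23 on the other WT arrays. The part of these other cells in the results below was not tested. Markers admitted through 1 genotype alone have differences that follow in part from the selection. Among these were Alx4, Lum, Col3a1, Col1a1, Otx2 and Rax, admitted through KO. Snai2 and the lens placode markers Foxe3, Pitx3 and Maf were admitted through WT.

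Carriers were spread unevenly over families. Members came from 29 of 50 Slc families on the array, and 21 families had none, among them the sodium/proton exchangers (Slc9), bile acid carriers (Slc10), vesicular and organic phosphate carriers (Slc17), sodium/phosphate carriers (Slc20) and multifunctional anion exchangers (Slc26). The mitochondrial carrier family (Slc25) gave 19 members of 46 genes and the metal ion carriers gave 14 of 33, whereas the organic cation and anion carriers (Slc22) gave 1 of 21 and the amino acid exchangers and light chains (Slc7) gave 1 of 14. Of the 243 other Slc genes on the array, 148 (60.9%) were above background on no array by their best probe. Just inside the threshold lay Slc25a51, at a detection p-value of 0.00962, and Slc13a4, Slc5a3, Slc5a6 and Slc66a1, all at 0.00855. Just outside lay Slc16a10, Slc16a13, Slc25a37 and Slc35a1, all at 0.0107.

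Members were split by the genotype in which they were seen. Of the 70, 46 were above background on all 6 arrays (65.7%, against 73.8% of all genes tested), 15 on all WT arrays but not all KO arrays (21.4%, against 6.65%), and 9 on all KO arrays but not all WT arrays (12.9%, against 19.5%). The last 2 kinds were admitted through 1 genotype alone, so their differences follow in part from the selection. Members above background numbered 58, 63 and 68 on the KO arrays and 65, 67 and 65 on the WT arrays. The mean intensity of a member over the 6 arrays ran from 5.92 to 11.84. The median member averaged 7.80 in KO and 8.15 in WT, while the median of all genes was 8.62 in KO and 8.59 in WT.

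Of the members, 43 had a negative and 27 a positive difference, with a median of -0.16, beside a median of 0.03 over all genes tested, of which 47.7% were negative. The counts were 35 and 35 without KO replicate 1 and 39 and 31 under median scaling. One member was called lower and 0 were called higher, while 0.49% of all genes were called lower and 0.28% higher. At an unadjusted p under 0.05 in limma, 8 members were lower and 5 higher, against 6.68% and 7.21% of all genes. In 9 members every KO array lay below every WT array and in 7 every KO array lay above, against 9.96% and 10.5% of all genes. Differences of -1 or less were found in 11 members and of 1 or more in 9, against 9.05% and 12.4% of all genes, and 50 lay between. These counts partly rest on the selection. Among the 46 members seen on all 6 arrays, 27 were negative and 19 positive, with a median of -0.06, and 0 were called by limma, the lowest adjusted p being 0.0658 for Slc39a10, with 2 lower and 3 higher at an unadjusted p under 0.05.

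**Figure D1:**
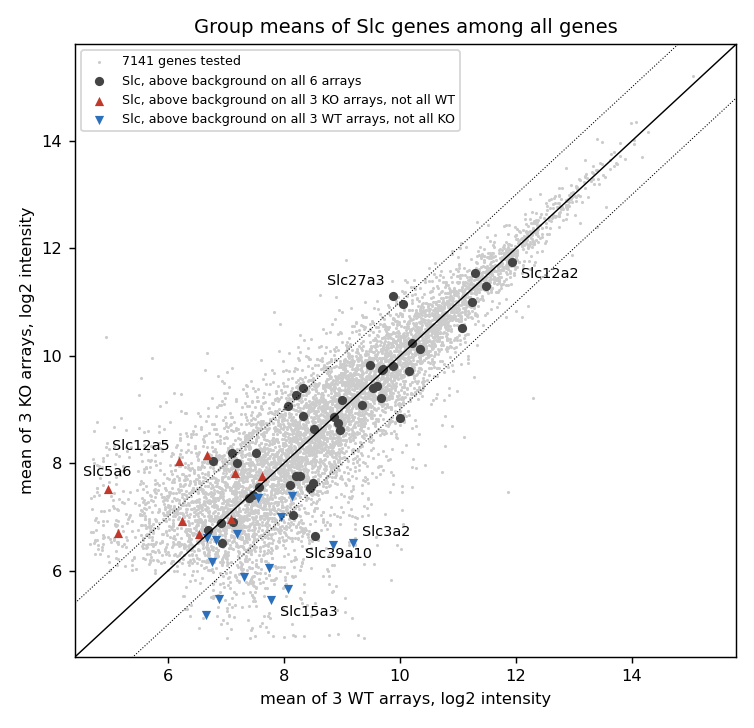
Mean log2 intensity of the 3 KO arrays (vertical axis) against that of the 3 WT arrays (horizontal axis) for 7141 genes (grey) and 70 Slc genes (symbols by the arrays on which they were above background), with a line of equality and dotted lines 1 log2 unit to either side. Most Slc genes lie between the dotted lines, and those beyond them are mostly dim, such as Slc15a3 (5.46 in KO and 7.78 in WT).

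The spread between arrays limited these comparisons. The median SD of a member was 0.52 in KO and 0.56 in WT, close to 0.46 and 0.58 over all genes. The bead standard error of a member had a median of 3.42% of its scanner intensity, which includes background. The median SD between amplifications was 35.7% of the mean in KO and 38.0% in WT. It was taken from background-corrected, normalized intensities on a linear scale, so these percentages cannot be compared directly with that of the beads. Over the 70 members, whose intensities share the same libraries and are not independent, arrays correlated at 0.791 to 0.839 (Pearson r) within KO, at 0.722 to 0.769 within WT and at 0.633 to 0.716 between genotypes.

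**Figure D2:**
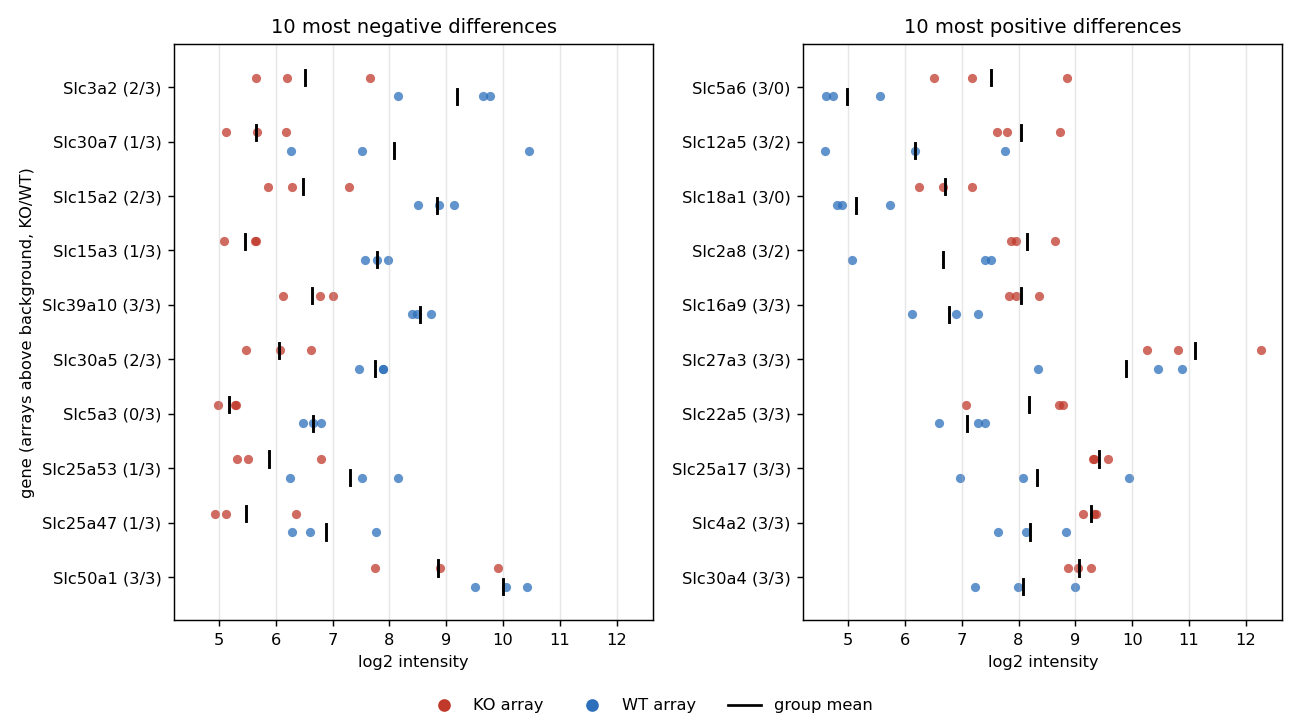
Log2 intensity (horizontal axes) on each KO array (red, upper points) and each WT array (blue, lower points) for the 10 members with the most negative (left) and the 10 with the most positive difference (right), with group means as bars and the number of KO and WT arrays above background in brackets. The 3 KO and 3 WT points of Slc15a3, Slc15a2 and Slc39a10 are far apart, while those of Slc50a1, Slc22a5 and Slc27a3 overlap.

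Peptide carriers of the Slc15 family held the one called member. Slc15a3 encodes a lysosomal carrier that exports histidine and small peptides. Its intensities were 5.09, 5.66 and 5.63 in KO, against 7.58, 7.98 and 7.78 in WT. All KO values were below all WT values, but only 1 KO array was above background, so the KO mean includes background readings. The mean was 5.46 ± 0.32 in KO and 7.78 ± 0.20 in WT (SD, n = 3 amplifications each), a fitted difference of -2.32 ± 0.29 (SE), or 0.200 times the WT level (limma, adjusted p = 0.0359). The call did not hold when any single array was left out (adjusted p = 0.0914 to 0.122, with differences of -2.50 to -2.14), but those fits, with 5 arrays, called at most 1 of the 7141 genes, so the loss says nothing particular of Slc15a3. The gene was admitted through WT. Its relative Slc15a2, a proton-coupled carrier that takes di- and tripeptides into the cell, gave 7.29, 5.87 and 6.28 in KO, against 9.14, 8.50 and 8.87 in WT. The groups did not overlap, with 2 KO arrays above background, and the difference of -2.36 ± 0.44 missed the threshold (limma, adjusted p = 0.0781). Another lysosomal relative, Slc15a4, was above background on 2 KO and 2 WT arrays and so was not a member.

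Amino acid carriers gave 10 members of 56 genes, 5 negative and 5 positive, with a median difference of 0.01 that became -0.17 without WT replicate 1, and limma called 0 of them (at an unadjusted p under 0.05, 1 lower and 1 higher). The most negative was Slc3a2, the heavy chain (CD98hc, 4F2hc) that brings amino acid exchangers of the Slc7 family to the cell surface. Slc3a2 had intensities of 5.65, 7.67 and 6.20 in KO, against 9.65, 9.77 and 8.15 in WT. Every KO array was below every WT array and 2 KO arrays were above background. The difference of -2.68 ± 0.68, the most negative of all members, was 6.41-fold lower as fitted but missed the threshold (limma, adjusted p = 0.146). Of the light chains that pair with Slc3a2, only Slc7a6 (y+LAT2, an exchanger of cationic for neutral amino acids) was a member. Its values of 6.94, 5.74 and 7.39 in KO, against 6.94, 7.87 and 6.77 in WT overlapped, for a difference of -0.51 ± 0.54 (limma, adjusted p = 0.737). Slc7a8 and Slc7a10 were above background on no array by any probe, Slc7a7 on at most 1 KO array and Slc7a11 on at most 1 WT array, and Slc7a5 was not analysed here. Slc38a5, a neutral amino acid carrier on the study's list of decreased transcripts, was above background on no array. That list also holds Slc3a2, Slc7a8, Slc7a11, Slc11a1 and Slc12a5. Of these, Slc3a2 was lower in KO here and Slc11a1 differed by 0.00029 ± 0.25. Slc12a5 differed by 1.87 ± 0.82, in the opposite direction to the list, with overlapping groups (limma, adjusted p = 0.360), and was not called. The study made its list with GenomeStudio's test, on embryos it describes as a day older. The test therefore differs from that used here, and the stage may differ too.

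At the positive end of the amino acid carriers stood Slc6a15, a sodium-coupled carrier of branched-chain amino acids and proline known from neurons. It was bright on every array, at 11.23, 10.84 and 10.84 in KO, against 10.46, 9.98 and 9.72 in WT. All KO values lay above all WT values. The difference of 0.92 ± 0.31, 1.89-fold, missed the threshold (limma, adjusted p = 0.243). Slc6a6, the taurine carrier, differed by 0.03 ± 0.33 and Slc6a8, the creatine carrier, by -0.02 ± 0.57, both with overlapping groups. The sodium-coupled neutral amino acid carriers Slc38a1, Slc38a2 and Slc38a4 were above background on all 6 arrays with differences of 0.17, -0.07 and -0.23. Slc38a4 was the steadiest of them in WT, with values of 10.06, 9.77 and 10.54 in KO, against 10.43, 10.27 and 10.34 in WT. Slc38a8, a glutamine carrier, spread over 7.58, 8.26 and 7.65 in KO, against 4.80, 9.54 and 7.11 in WT, so that its WT arrays spanned both ends of the range. Slc1a4, which carries alanine, serine and cysteine, differed by 0.14 ± 0.84.

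Metal ion carriers gave 14 members of 33 genes, and limma called 0 of them (at an unadjusted p under 0.05, 2 lower and 0 higher). Differences were negative in 11, with a median of -0.38 that ranged from -0.77 without KO replicate 3 to -0.25 without WT replicate 2. The count includes 4 members admitted through WT alone. Of the 10 above background on all 6 arrays, 7 were negative and 3 positive, with a median of -0.25, while 47.7% of all genes tested were negative. Zinc carriers of the Slc39 (ZIP) family bring zinc into the cytosol, and those of the Slc30 (ZnT) family move it out or into organelles. Slc39a10 (ZIP10), which imports zinc at the cell surface, gave 7.02, 6.78 and 6.14 in KO, against 8.49, 8.74 and 8.39 in WT. The groups did not overlap, and the gene was above background on all 6 arrays. The mean was 6.64 ± 0.45 in KO and 8.54 ± 0.18 in WT (SD, n = 3 amplifications each), 3.72-fold lower in KO as fitted, and the difference of -1.90 ± 0.32 missed the threshold (limma, adjusted p = 0.0658). Its closest paralog Slc39a6 (ZIP6) was bright at 11.23, 10.43 and 11.31 in KO, against 11.33, 11.45 and 10.92 in WT, and these values overlapped, with a difference of -0.24 ± 0.35. Slc39a13 (ZIP13, of the secretory pathway) spread widely in KO, at 9.02, 7.36 and 6.24 in KO, against 8.32, 8.30 and 8.75 in WT. The other family members, Slc39a1 and Slc39a8 of the cell surface and Slc39a7 of the endoplasmic reticulum, differed by -0.04 (0.24 under median scaling), -0.87 and 0.13, and all of these groups overlapped. Over the 6 ZIP members, of 13 on the array, the median difference was -0.56.

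The Slc30 family had 4 members of 10 genes. Slc30a5 (ZnT5), Slc30a6 (ZnT6) and Slc30a7 (ZnT7) load zinc into the early secretory pathway, ZnT5 and ZnT6 as a pair. Slc30a5 gave 5.48, 6.08 and 6.62 in KO, against 7.89, 7.89 and 7.46 in WT. The groups did not overlap, and 2 KO arrays were above background. Its difference of -1.69 ± 0.37 missed the threshold (limma, adjusted p = 0.114), as did that of its second probe, -2.30 ± 0.38 (limma, adjusted p = 0.0624). Its partner Slc30a6 overlapped between genotypes, with a difference of -0.25 ± 0.49. Slc30a4 (ZnT4), of endosomes and secretory vesicles, had a difference of the opposite sign, 0.99 ± 0.48, with 8.87, 9.28 and 9.05 in KO, against 7.99, 8.99 and 7.23 in WT, and 1 WT array reached into the KO range.

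The probes of Slc30a7 disagreed. The brightest gave 5.13, 5.68 and 6.18 in KO, against 7.52, 6.27 and 10.45 in WT, and WT replicate 3 alone stood far above the rest. Its difference of -2.42 ± 1.05 became -1.22 without that array. The second tested probe gave 8.65, 6.46 and 7.27 in KO, against 4.82, 4.81 and 4.75 in WT, with all KO arrays and no WT array above background. That is at least 2.45-fold higher in KO when WT is set at the background limit, with a fitted difference of 2.67 ± 0.56 (limma, adjusted p = 0.103). No direction can be given for Slc30a7 from these probes.

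Of the other metal carriers, Slc11a1 (NRAMP1), a divalent metal carrier of macrophage phagosomes, had the fitted difference nearest 0, at 8.77, 8.82 and 9.01 in KO, against 8.84, 8.71 and 9.04 in WT. These values overlapped throughout, with a difference of 0.00029 ± 0.25 that turned to -0.0025 under median scaling. Slc11a2 (DMT1), the main importer of iron from the gut and from endosomes, differed by -0.20 ± 0.87, with KO arrays at both ends of its range, and by 0.80 without KO replicate 1. The copper importer Slc31a1 (CTR1) differed by -0.51 ± 0.59, which was -0.05 without WT replicate 2, and the heme carrier Slc48a1 (HRG1) by -0.95 ± 0.74, which was -0.36 without KO replicate 1, both with overlapping groups. Their limma adjusted p-values were 0.761 for Slc31a1 and 0.631 for Slc48a1. Iron and heme carriers are also used by red cell precursors, and the blood marker sums given above were higher in KO. The part of blood cells in the values of these carriers was not tested.

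Mitochondrial carriers (Slc25) were the largest family, with 14 of the 19 members above background on all 6 arrays, 13 negative and 6 positive, and with 0 called by limma (at an unadjusted p under 0.05, 2 lower and 0 higher). The counts by sign include 4 members admitted through WT alone and 1 through KO alone. Of the 14, 9 were negative and 5 positive, while 47.7% of all genes tested were negative. The median difference of the 19 was -0.18, or -0.02 under median scaling, and it was -0.12 over the 14. The ADP/ATP carriers, which exchange ATP made in mitochondria for cytosolic ADP, had differences of opposite sign. Slc25a4 (ANT1) gave 11.51, 11.53 and 11.55 in KO, against 11.38, 11.42 and 11.07 in WT, while Slc25a5 (ANT2) gave 10.56, 10.63 and 10.35 in KO, against 11.26, 11.12 and 10.83 in WT. Neither pair of groups overlapped. The difference was 0.24 ± 0.25 for Slc25a4 and -0.56 ± 0.26 for Slc25a5, each missing the threshold (limma, adjusted p = 0.728 and 0.393), and the difference between the paralogs was not tested. Slc25a38, which imports glycine for heme synthesis, had 11.28, 10.83 and 11.77 in KO, against 11.73, 11.88 and 10.85 in WT and overlapped. Slc25a3, the phosphate carrier that feeds ATP synthesis, differed by 0.55 ± 0.39 by its brightest probe and -0.02 ± 0.36 by its second.

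The ATP-magnesium/phosphate carriers adjust the adenine nucleotide pool of mitochondria. Slc25a25 gave 6.63, 7.69 and 6.77 in KO, against 8.27, 7.81 and 8.41 in WT, without overlap, for a difference of -1.13 ± 0.38 (limma, adjusted p = 0.246). Its relative Slc25a24 differed by -0.59 ± 0.50 by its brightest probe and -1.75 ± 0.41 by its second (limma, adjusted p = 0.662 and 0.126), with 1 or 2 KO arrays above background. The most negative mitochondrial carriers were dim, and their substrates are not well known. Slc25a53 gave 5.51, 5.33 and 6.80 in KO, against 8.16, 6.25 and 7.52 in WT and Slc25a47 gave 5.12, 4.93 and 6.36 in KO, against 7.77, 6.60 and 6.28 in WT. In both, 1 KO array was above background and it overlapped the WT values. At the other end stood Slc25a17, the peroxisomal member that carries coenzyme A and related nucleotides, at 9.57, 9.32 and 9.33 in KO, against 8.08, 6.97 and 9.93 in WT. Its KO arrays were close together and fell within the WT range.

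The remaining mitochondrial carriers lay between -0.40 and 0.69 and all had overlapping groups. They included the carnitine/acylcarnitine carrier Slc25a20 (-0.40), the oxoglutarate/malate carrier Slc25a11 (0.06), the pyrimidine nucleotide carrier Slc25a36 (-0.18), the iron importer mitoferrin-2, Slc25a28 (0.68), and the NAD+ carrier Slc25a51 (0.69). Single arrays decided the most positive of these, as Slc25a28 was at 0.02 without KO replicate 1 and Slc25a51 at 0.18 without KO replicate 2. The others were Slc25a14 (-0.06), Slc25a16 (-0.05), Slc25a39 (-0.21), Slc25a42 (-0.02) and Slc25a44 (-0.35).

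**Figure D3:**
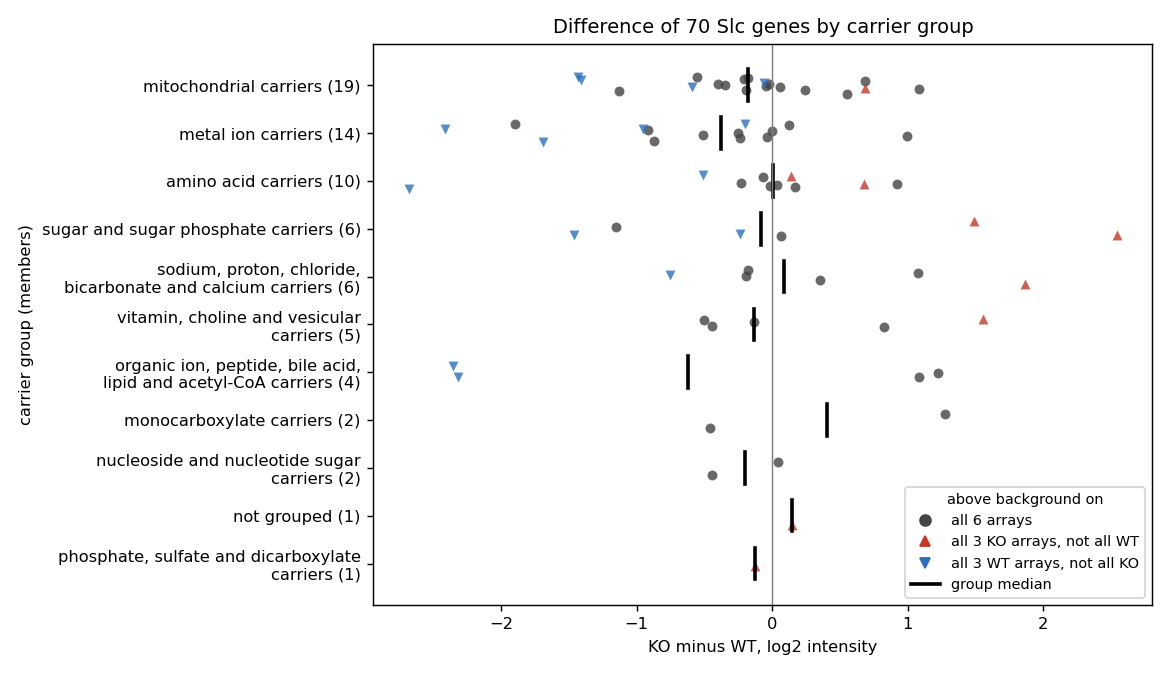
KO minus WT difference in log2 intensity (horizontal axis) of each of the 70 Slc genes by carrier group (vertical axis, members in brackets), with symbols by the arrays on which the gene was above background and bars at group medians. Metal ion carriers have a median of -0.38 and amino acid carriers of 0.01, and the points farthest from 0 are mostly triangles, genes not above background on all arrays of 1 genotype.

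The sugar carrier families (Slc2, Slc5, Slc45 and Slc50) had 6 members of 29 genes, 3 negative and 3 positive, with a median difference of -0.09 that was 0.30 under median scaling, and 0 were called by limma (at an unadjusted p under 0.05, 1 lower and 1 higher). The ends of this range were both Slc5 genes. Slc5a3, the sodium/myo-inositol carrier that responds to osmotic stress, gave 5.28, 4.98 and 5.30 in KO, against 6.81, 6.66 and 6.48 in WT. The groups did not overlap and no KO array was above background, which bounds it at least 1.80-fold lower in KO, with a fitted difference of -1.46 ± 0.26 (limma, adjusted p = 0.0703). Slc5a6, which carries biotin, pantothenate and lipoate and no sugar, gave 6.52, 7.19 and 8.86 in KO, against 4.62, 4.73 and 5.57 in WT. Here no WT array was above background, and the KO mean was at least 2.55-fold above WT set at the background limit. The fitted difference was 2.54 ± 0.65, the most positive of all members (limma, adjusted p = 0.148). Each had been admitted through the genotype in which it was brighter.

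Slc50a1, the mammalian SWEET sugar carrier, was above background on all 6 arrays at 9.91, 8.88 and 7.75 in KO, against 9.51, 10.06 and 10.42 in WT. KO replicate 1 lay within the WT range, and the difference of -1.15 ± 0.59 became -0.61 without KO replicate 3 (limma, adjusted p = 0.438 with all arrays). Slc2a8 (GLUT8), an intracellular hexose carrier, gave 7.95, 8.64 and 7.87 in KO, against 7.40, 5.08 and 7.52 in WT. The groups did not overlap, and WT replicate 2, below background, was the farthest out, with a difference of 0.68 once it was left out and 1.49 ± 0.71 with it. Slc5a12, a sodium-coupled monocarboxylate carrier, differed by 0.07 ± 0.33 and Slc45a4 by -0.24 ± 0.52, with overlapping groups.

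Carriers of sodium, chloride, bicarbonate and calcium had 6 members of 40 genes, with a median difference of 0.09 and 0 called by limma (at an unadjusted p under 0.05, 0 lower and 1 higher). Slc12a2 (NKCC1), the sodium-potassium-chloride cotransporter that sets cell volume and chloride, had the brightest probe of all members. Its values were 12.04, 11.76 and 11.45 in KO, against 12.04, 11.62 and 12.12 in WT, overlapping, with a difference of -0.18 ± 0.30 (limma, adjusted p = 0.848). Slc12a5 (KCC2), the potassium-chloride cotransporter of mature neurons, gave 7.79, 8.73 and 7.63 in KO, against 7.77, 6.19 and 4.60 in WT. The lowest WT value was below background, and the difference of 1.87 ± 0.82 became 1.02 without that array, WT replicate 3. Slc12a3, the thiazide-sensitive sodium-chloride cotransporter of the kidney, was even across arrays, with a difference of -0.19 ± 0.25.

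Slc4a2 (AE2), which exchanges chloride for bicarbonate in most epithelia, gave 9.33, 9.13 and 9.37 in KO, against 8.14, 8.83 and 7.64 in WT. Every KO array lay above every WT array, and the KO values were within a narrow range. The difference of 1.07 ± 0.37, 2.10-fold, missed the threshold (limma, adjusted p = 0.248). The sodium/calcium exchanger Slc8a1 (NCX1) differed by -0.76 ± 0.89, which turned to 0.24 without KO replicate 3. Slc24a5, an exchanger of pigment granules, differed by 0.35 ± 0.31.

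Carriers of vitamins, choline and vesicular amines had 5 members of 28 genes, with a median difference of -0.13 that ranged from -0.45 without KO replicate 2 to 0.33 without KO replicate 1. Both vesicular monoamine carriers were among them, which load serotonin and catecholamines into secretory vesicles. Slc18a1 (VMAT1) gave 6.67, 6.25 and 7.18 in KO, against 4.80, 4.89 and 5.73 in WT. No WT array was above background, which bounds the gene at least 1.45-fold higher in KO, with a fitted difference of 1.56 ± 0.40 (limma, adjusted p = 0.147). Slc18a2 (VMAT2) overlapped at 8.08, 7.35 and 8.61 in KO, against 7.02, 8.27 and 6.27 in WT. The choline carriers Slc44a1 and Slc44a2 differed by -0.44 ± 0.46 and -0.13 ± 0.52, and the thiamine carrier Slc19a2 by -0.50 ± 0.65, with overlapping groups in each.

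Few members carried lipids, carnitine, lactate or nucleotides. Slc27a3 (FATP3), an acyl-CoA synthetase of the fatty acid transport family, was bright and variable at 10.26, 12.26 and 10.81 in KO, against 10.87, 10.45 and 8.34 in WT, and its difference of 1.22 ± 0.83 became 0.45 without WT replicate 3. Slc22a5 (OCTN2), the carnitine importer, gave 8.71, 7.08 and 8.77 in KO, against 7.41, 7.29 and 6.60 in WT, with KO replicate 2 inside the WT range. Together with the Slc15 genes these form a group of 4 members of 44 genes with a median difference of -0.62, which was 1.15 over the pair above background on all 6 arrays.

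Of the monocarboxylate carriers (Slc16, 2 members of 13), Slc16a9 gave 7.95, 7.83 and 8.36 in KO, against 7.29, 6.90 and 6.12 in WT. Every KO array lay above every WT array, for a difference of 1.28 ± 0.38 (limma, adjusted p = 0.203), and its second tested probe gave 0.95 ± 0.33. The lactate exporter Slc16a3 (MCT4) differed by -0.46 ± 0.38 with overlap. The nucleotide sugar carriers of the Golgi, Slc35a3 and Slc35a4, differed by -0.45 ± 0.40 and 0.05 ± 0.46, the sulfate carrier Slc13a4 by -0.13 ± 0.90, and Slc66a1, the lysosomal exporter of cationic amino acids, by 0.14 ± 0.76, all with overlap.

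More than 1 tested probe was present for 14 members. The probes shared a sign in 8 genes and differed in sign in 6, namely Slc30a7, Slc11a2, Slc25a3, Slc25a11, Slc25a38 and Slc38a2. Slc35a3 was the most even, with differences of -0.45, -0.44 and -0.55 from its 3 probes. Apart from Slc30a7, no probe of these 6 genes reached an unadjusted p under 0.05 in limma. For 36 members the array had a single probe, and for 34 it had more than 1, though not every such probe was tested. Only 1 of 5 probes was tested for Slc12a2, Slc12a3 and Slc6a15, and 1 of 4 for Slc11a1. The other probes of these genes did not meet the detection threshold.

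**Figure D4:**
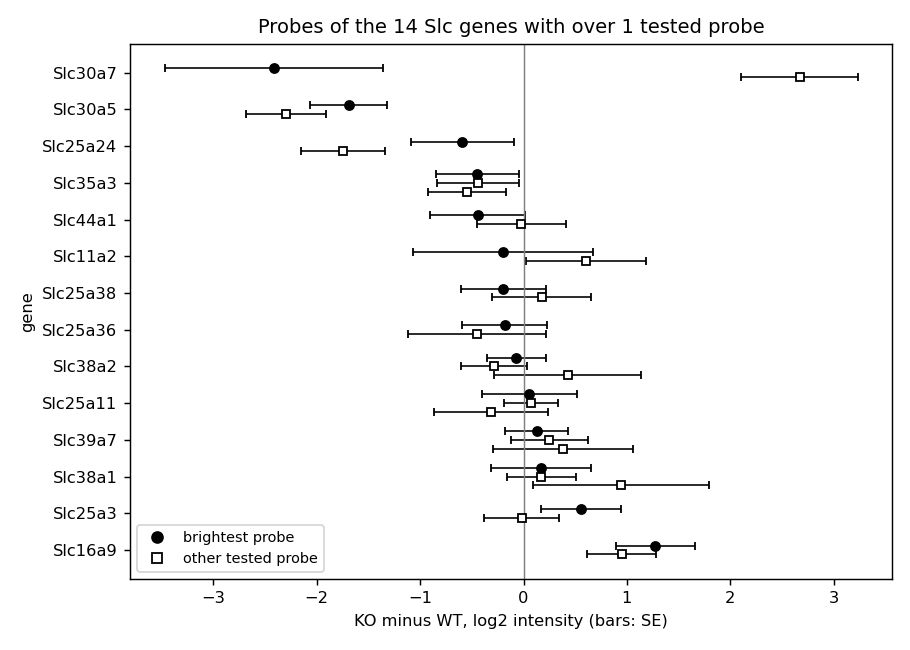
KO minus WT difference in log2 intensity (horizontal axis, bars show limma's SE) of each tested probe of the 14 Slc genes with over 1 tested probe (vertical axis), the brightest probe as a filled circle and the others as open squares. The probes of Slc30a7 lie at -2.42 and 2.67, and those of Slc30a5 at -1.69 and -2.30.

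CBP takes its name from CREB, a transcription factor that binds the cyclic AMP response element TGACGTCA and its core TGACG, so promoters of members were searched for these letters. RefSeq promoter windows (GRCm38.p6, 250 bases before to 50 after a transcript start) were matched for 55 of the 70 members, 70 windows in all. On either strand, TGACGTCA was found in 3 of the 70 windows (4.29%), against 1.79% of all 32851 windows of this length. The core TGACG, which counts every full element too, was in 24 (34.3%), against 20.8%. The windows compared were not limited to genes above background here, as the members were, and the share among tested genes was not counted. The stretches around the full elements are shown for their 3 genes, and those around the core for Slc15a2, Slc30a5 and Slc5a6, members with large differences in either direction, with the matched letters in capitals.
Slc25a25 (chr2:32424183-32424242, minus strand): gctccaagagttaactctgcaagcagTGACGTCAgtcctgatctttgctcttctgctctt
Slc25a36 (chr9:97111169-97111228, minus strand): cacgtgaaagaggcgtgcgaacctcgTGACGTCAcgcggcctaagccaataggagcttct
Slc18a2 (chr19:59260848-59260907, plus strand): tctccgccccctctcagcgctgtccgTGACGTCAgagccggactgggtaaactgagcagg
Slc15a2 (chr16:36784976-36785032, minus strand): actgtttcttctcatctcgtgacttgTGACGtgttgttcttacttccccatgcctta
Slc30a5 (chr13:100833391-100833447, minus strand): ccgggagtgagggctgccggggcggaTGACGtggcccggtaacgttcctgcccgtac
Slc5a6 (chr5:31048774-31048812, minus strand): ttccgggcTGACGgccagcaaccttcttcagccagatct
The match began 150 bases before the start in Slc25a25, 161 in Slc25a36, 4 in Slc18a2, 44 in Slc15a2 and 242 in Slc5a6, and 6 bases after the start in Slc30a5. The genes with a full element differed by -1.13 (Slc25a25), -0.18 (Slc25a36) and 0.83 (Slc18a2), 1 of them positive. Of the 22 matched genes with the core, 15 were negative and 7 positive, beside 20 negative and 13 positive among the 33 matched genes without it. A match describes the letters of the window and is no evidence that a factor binds there.

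Proteins that work with the carriers were examined alongside. Of a list of accessory chains, scaffolds and sodium pump subunits, 7 of 14 genes on the array were measured and limma called 0. At an unadjusted p under 0.05 in limma, 1 was lower, while 6.68% of all genes were lower. Differences were negative in 5 and positive in 2, with a median of -0.36, while 47.7% of all genes were negative. Atp1b1 and Slc9a3r2 were admitted through KO alone, so their differences follow in part from the selection. Slc9a3r1 (NHERF1), a scaffold that anchors carriers below the apical membrane, gave 7.47, 8.28 and 9.28 in KO, against 9.70, 10.14 and 10.45 in WT. These groups did not overlap, and the difference of -1.75 ± 0.51 missed the threshold (limma, adjusted p = 0.191). Embigin (Emb), a chaperone of monocarboxylate carriers, differed by -1.12 ± 0.56, with overlap. Its relative basigin (Bsg) was not above background on any array. The sodium pump subunits Atp1b1 and Atp1b3 differed by 1.07 ± 1.08 and -0.36 ± 0.26.

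Among ABC transporters, 6 of 25 genes on the array were measured, 1 negative and 5 positive, with a median difference of 1.10 and 0 called by limma (at an unadjusted p under 0.05, 0 lower and 2 higher). Abcg2, an exporter of xenobiotics, heme precursors and urate, gave 7.48, 6.68 and 6.40 in KO, against 5.12, 4.75 and 4.75 in WT. No WT array was above background, and the KO mean was at least 1.61-fold above WT set at the background limit. The fitted difference was 1.98 ± 0.36 (limma, adjusted p = 0.0770). Abca3, a lipid carrier of intracellular organelles, gave 9.72, 8.33 and 8.02 in KO, against 6.65, 5.76 and 7.01 in WT, without overlap and with 1 WT array above background. Abcd3, which carries fatty acids into peroxisomes, was bright and overlapping, with a difference of 0.13 ± 0.29. Over all genes tested, 47.7% were negative, and 7.21% were higher at an unadjusted p under 0.05 in limma. The ABC genes measured through 1 genotype alone were admitted by their signal there, so the ABC counts are a description.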

How the data were processed

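Per the labels, RNA of laser-dissected KO surface ectoderm and WT lens placode at embryonic day 9.5 was amplified and hybridised to 6 Illumina MouseWG-6 v2 arrays on 1 BeadChip. The authors deposited, for each of 45281 probes, the scanner intensity on a linear scale, not normalized, with its bead number and bead standard error, and a detection p-value against negative control beads. A second deposited table holds intensities that the authors processed in GenomeStudio with a cubic spline; the version is not given in the sources used here. It served as an alternative, since each column ranked the probes as the scanner did on that array (Spearman correlation 1) and had a median of 15.9 to 16.0. For this alternative, values below 16 were set to 16 before the log2 transform. That floor is close to the median of each array, and 27.2% to 27.3% of the values on an array were below 0. Differences of dim probes under this alternative depend on the floor. GenomeStudio's own test was not run.

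Analysis used R 4.3.3 and limma 3.58.1. Intensities were background corrected (normexp from detection p-values, offset 16), quantile normalized and log2 transformed. Testing covered the 12697 probes (7141 genes) above background, at a detection p under 0.01, on every array of 1 genotype or both, and a gene was represented by its brightest kept probe over all arrays. A mean per genotype was fitted (lmFit, eBayes, 4 residual and 2.15 prior degrees of freedom), with Benjamini-Hochberg adjustment over kept probes. The number of arrays limits the precision. A probe above background on no array of a genotype is bounded, which is written "at least". The brighter mean is set against the mean, over the dim arrays, of the probe's own signal or, if higher, the lowest one above background. That lowest log2 signal ran from 5.51 on KO replicate 3 to 6.71 on WT replicate 1. A bound compares means and carries no error, so it is not a confidence limit. Raw medians were 95.5, 90.9 and 94.5 on KO arrays and 141, 85.6 and 87.0 on WT arrays, with 14759, 15353 and 17195 probes above background in KO and 12212, 15325 and 15241 in WT.

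Gene symbols came from the platform annotation. All 70 members matched RefSeq by Entrez identifier with the same symbol, and 54 other Slc symbols on the array, 16 of them with a kept probe, did not have the form used. Columns without a sample numbered 0. Members, carrier groups (by Slc family number) and lists were chosen with earlier results of these data known. Genes were named by rule: called members, the 10 most negative, the 10 most positive and the 10 brightest, those on the study's list, Slc3a2 with its light chains, and the ends of a carrier group. Further members were named to complete their families, after their values were seen. The fitting was tested on simulated data. Alternatives were the deposited processed values, no background correction, an offset of 50, median scaling, no filter, detection on all 6 arrays, the mean over tested probes, a replicate block and leaving out each array.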

Additional observations from a re-analysis of the deposited data

How the results depend on the processing

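The single call was Slc15a3. The count of members called lower by limma was 0 with the deposited processed values, without background correction, with median scaling, with no filter, with an offset of 50 and with the replicate block, and 0 when each array was left out; the count called higher was 0 throughout. The count called lower was also 0 with detection required on all 6 arrays, where Slc15a3 was not among the genes tested. Fits without an array called 0 genes of any kind lower and 0 or 1 higher by limma, with 6 to 9 members lower and 3 to 6 higher at an unadjusted p under 0.05, so they say little about single calls. The adjusted p of Slc15a3 ran from 0.0350 to 0.207 over the alternatives. The numbers of the arrays did not pair them: deviations of same-numbered KO and WT arrays correlated at -0.01, 0.00126 and -0.03, and with the replicate block 0 genes of any kind were called in either direction by limma, with 8 members lower and 4 higher at an unadjusted p under 0.05. The members' median stayed between -0.21 and -0.03. Group medians were -0.22 for monocarboxylate and 0.12 for nucleotide sugar carriers with no filter. Organic ion, peptide and lipid carriers were at -0.27 without background correction, 0.027 with no filter and 1.15 on all 6 arrays, and sugar carriers at 0.30 with median scaling and -0.54 on all 6 arrays. Leaving out each array gave -0.17 to 0.084 for amino acid, -0.77 to -0.25 for metal ion, -0.26 to -0.073 for mitochondrial, -0.34 to 0.13 for sugar, -0.90 to -0.49 for organic ion, -0.061 to 0.25 for sodium and chloride, and -0.45 to 0.33 for vitamin and choline carriers. The cause of these shifts was not tested. Of 421 comparisons of 31 named genes with an alternative, 409 kept their direction. Part of this was fixed in advance, so the count does not measure robustness. The replicate block and detection on all 6 arrays reuse the same intensities and give the same difference. So does the mean over tested probes for a gene with 1 tested probe, and no filter wherever the same probe stays the brightest. Slc11a1 (-0.0025) and Slc6a6 (-0.087) turned negative under median scaling, and Slc30a7 turned to 0.13 as the mean over its tested probes. Without single arrays Slc11a1 lay between -0.075 and 0.085, Slc6a6 between -0.23 and 0.21, Slc25a38 between -0.51 and 0.038, Slc39a6 between -0.40 and 0.038 and Slc44a1 between -0.76 and 0.0049. Called genes of all kinds numbered 35 lower and 20 higher as reported, 43 and 36 with the deposited values, 13 and 3 without background correction, 21 and 29 with median scaling, 18 and 5 with no filter, 17 and 9 with an offset of 50, and 1 and 0 on all 6 arrays. Signal over background limits the dim carriers: 24 of the 70 members were not above background on all arrays of 1 genotype.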
